A study of Mus musculus with 34 samples.

Results

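The proteasome genes of mouse were followed in ribosome-protected mRNA fragments (footprints, RPF) and in RNA of the hippocampus after contextual fear conditioning, of hippocampal primary culture and of mouse embryonic stem cells (ESC). Members were all gene symbols made of Psm, a letter from a to g and a number. The deposited tables held 48 such symbols, of which 45 were listed among 11531 genes in the hippocampus tables, 43 among 10379 genes in culture and 47 among 11029 genes in ESC. The 43 members listed in all 4 tables stood among 8760 genes that all 4 tables share. They fall into the alpha ring (7 genes in the hippocampus tables), the beta ring (7), the inducible beta subunits (2), the base ATPases (6), the other base subunits (2), the lid (8), the assembly factors (7), and the activators with 1 inhibitor (5). Psmc3ip also matched the symbols, although it is a recombination factor and no proteasome subunit, so it is kept out of the counts below.

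The proteasome degrades proteins that carry ubiquitin chains. Its 20S core is a barrel of stacked rings of alpha and beta subunits, in which Psmb5, Psmb6 and Psmb7 hold the protease sites, and the 19S particle on its ends recognizes, unfolds and feeds in the substrate. The base of the 19S particle is a ring of ATPases, and its lid carries Psmd14, which removes the ubiquitin chain. Cells that meet interferon replace the catalytic subunits by Psmb8, Psmb9 and Psmb10 (the immunoproteasome), and Psme1 to Psme4 code for other caps of the core. In the hippocampus, protein degradation by this complex at synapses is known to take part in memory formation.

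Hippocampi came from C57BL/6N mice in 5 groups. Control mice received no stimulus, and the other groups were taken 5 min, 10 min, 30 min and 4 h after conditioning, in which a mouse explored a chamber for 148 s and then received a foot shock of 2 s. Each group had 3 RPF and 3 RNA libraries, and lysates held cycloheximide, which keeps ribosomes on their mRNA. Hippocampal primary culture from C57BL/6N and the ESC line A3-1, treated for 48 h with a small interfering RNA against luciferase, gave 1 RPF and 1 RNA library each, so nothing in those cells has a replicate check. The labels do not say whether replicates are separate mice or pools, and a p-value here speaks only of the variation among the libraries at hand, which may be technical. The hippocampus is a mixture of cells, in which fewer cells of a type and less RNA per cell cannot be told apart.

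The libraries held 14240563 to 30480009 (RPF) and 16814796 to 25515210 (RNA) reads on listed genes in the hippocampus, 18771379 and 7282564 in culture, and 65147288 and 16686790 in ESC. Values are given in the deposited unit, called signal here, which is whole reads divided by 1 number per library; since gene lengths do not enter, levels are not compared between genes. All 7 pluripotency markers were listed in ESC, where their summed RPF signal was 534, against 2.93 to 3.43 in control hippocampus, whose table lists only Sox2 of them. The summed neuronal markers reached 277 in culture and 10.1 in ESC, against 445 to 489 in control hippocampus. Culture had 1.53 of summed oligodendrocyte marker signal and 0.278 of microglia marker signal, against 267 to 369 and 38.1 to 51.3 in control hippocampus. Libraries with the same replicate number deviated together from their group means, and the summed RPF signal of 8 choroid plexus markers, genes of the epithelium that lines the ventricles, spread from 68.3 to 2090 over the hippocampus libraries (180 to 2090 in control, 494 to 1526 at 5 min, 228 to 1721 at 10 min, 185 to 1314 at 30 min, 68.3 to 1549 at 4 h). The part of either in the values below was not tested.

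After conditioning, no proteasome member passed the test at any time, while most of the footprint values at 5 min lay slightly below control. In limma on log2(signal + 1) with Benjamini-Hochberg adjustment, 0 of 40 members tested were called at 5 min, 10 min, 30 min or 4 h, beside 0% of the 7898 genes tested at each time, and 0 members had an unadjusted p under 0.05. With the replicate number as a block, again 0 members were called, beside 0%, 0%, 0.0506% and 0% of all genes at the 4 times, and the members with an unadjusted p under 0.05 numbered 4, 0, 1 and 1, among 544, 259, 218 and 477 of all 7898 genes. At 5 min these were Psme1, Psma4, Psma6 and Psmd14. With limma-voom on the reads, 0 members were called and 0 had an unadjusted p under 0.05 at any time. Limma-voom with the block also called 0 members, with 4, 0, 2 and 1 at an unadjusted p under 0.05, among 604, 264, 231 and 508 genes. No pair of time points differed for any member by limma. The smallest adjusted p of a member in the RPF contrasts with control was 0.9997 by limma without the block and 0.668 by limma with it.

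The direction of the estimates is given as a description. The log2 change from control was below 0 for 37 of 40 members at 5 min, against 52.7% of all genes, and the members' median was -0.07, against -0.005 for all genes. In 29 of the 40 members each 5 min library lay below the control library of the same number, against 22.9% of all genes. By number, 37, 35 and 33 of the 40 were lower, against 49.6%, 52.0% and 53.6% of all genes. The members' median itself varied between RPF libraries of a group, with an SD of 0.063. This SD leaves the pairing by number out, and the median change of -0.07 is close to it in size. Paired by number, the members' median differences from control were -0.043, -0.093 and -0.050, against 0.0007, -0.005 and -0.008 for all genes. Members thus shifted together within a library, and the 40 members are not 40 separate observations of a decrease. The medians by class were -0.11 in the alpha ring (6 of 7 below 0), -0.07 in the beta ring (7 of 7), -0.08 in the base ATPases (6 of 6), -0.07 in the other base subunits (2 of 2), -0.07 in the lid (8 of 8), -0.04 in the assembly factors (3 of 4) and -0.03 in the activators and inhibitor (4 of 5). Leaving out 1 library of either group left 32 to 39 of the 40 below 0. In the same RPF contrast the glial marker lists had medians above 0, at 0.13 for astrocytes (4 of 6 genes above 0), 0.10 for oligodendrocytes (5 of 6) and 0.11 for microglia (6 of 7), while neurons had -0.03. At 4 h these medians were 0.10, 0.11, 0.14 and 0.02. The part of these lists in the members' values was not tested. The times share the control libraries, so their estimates are not independent.

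**Figure D1:**
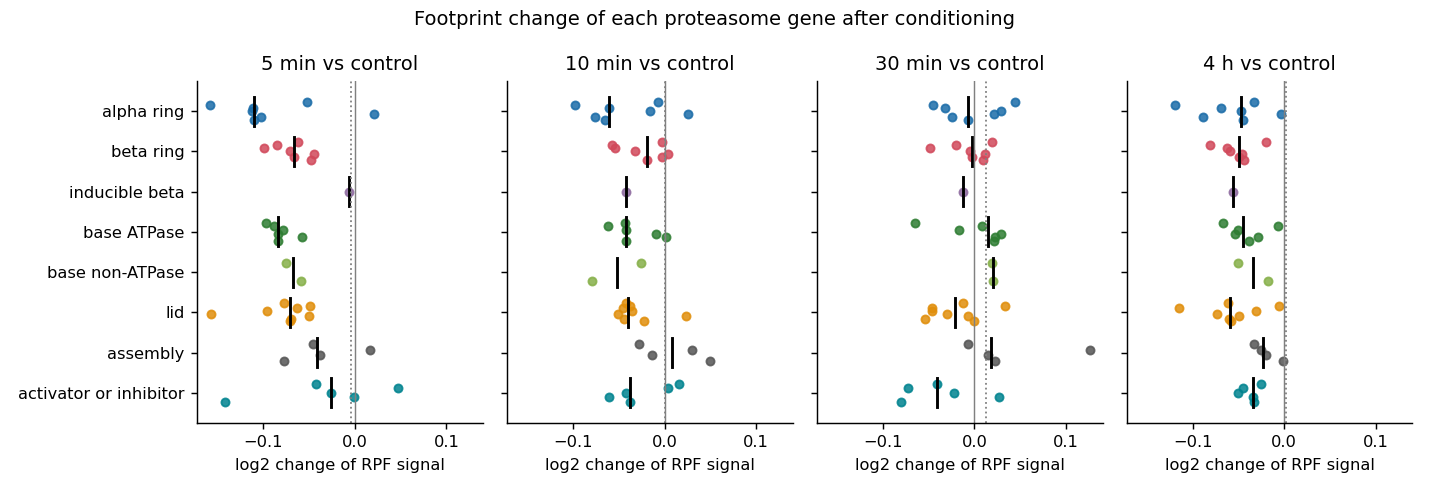
RPF log2 change of each proteasome member from control hippocampus (horizontal axes) at the 4 times after conditioning, by class (rows), with 1 point a member, a bar at the class median and a dotted line at the median of all genes. Most points at 5 min lie below 0, with a median of -0.07 over 40 members, and no member passed the test.

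In the alpha ring, which forms the gate of the core, Psma6 had RPF signals of 7.07, 6.48 and 6.99 at 5 min, against 7.86, 7.38 and 8.02 in control. Every 5 min library lay below every control library. Its log2 change was -0.16 with a standard error (SE) of 0.12 and an adjusted p of 0.9997 in limma (0.668 with the replicate block). Psma3, another alpha subunit, had 11, 11.05 and 12.9 at 5 min, against 11.003, 10.9 and 12.5 in control. These overlap, with a log2 change of 0.02 (SE 0.08). The groups also did not overlap in Psma5, Psmb7 and Psmd7, so 4 of 40 members had every 5 min library below every control, against 3.06% of all genes. Psma5 had 5.26, 5.11 and 5.00 at 5 min, against 5.47, 5.51 and 5.87 in control.

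The catalytic beta subunits gave smaller differences. Psmb5, the chymotrypsin-like protease subunit, had 6.77, 7.05 and 6.43 at 5 min, against 6.85, 8.003 and 7.09 in control (log2 change -0.10, SE 0.07). Psmb6, the caspase-like subunit, had 7.55, 7.91 and 8.06 at 5 min, against 7.75, 9.12 and 8.32 in control (-0.09, SE 0.08). The 5 min values of both ran lower at each replicate number, and the groups overlapped. Psmb7, the trypsin-like subunit, had 8.06, 8.16 and 8.04 at 5 min, against 8.41, 8.83 and 8.24 in control (-0.06, SE 0.06). Psmb1, a beta subunit with no protease site, had 14.2, 16.5 and 15.8 at 5 min, against 14.6, 16.7 and 16.8 in control (-0.05, SE 0.09). The immunoproteasome subunit Psmb10 had 1.47, 1.75 and 1.92 at 5 min, against 1.53, 1.86 and 1.77 in control (-0.01, SE 0.09), with 2 of 3 numbers lower.

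In the 19S particle the deubiquitinase gene Psmd14 had RPF signals of 6.44, 5.42 and 6.00 at 5 min, against 6.90, 6.40 and 6.95 in control. Replicates 2 and 3 at 5 min lay below all controls, and replicate 1 lay just above the lowest control. The log2 change was -0.16 (SE 0.12, adjusted p 0.9997 in limma). The ATPase gene Psmc6 had 6.96, 6.09 and 7.16 at 5 min, against 7.17, 6.97 and 7.65 in control (-0.10, SE 0.11). Psmc3, another ATPase gene, had 9.42, 7.81 and 8.90 at 5 min, against 10.1, 8.58 and 9.19 in control (-0.08, SE 0.12). Both overlapped between the groups and were lower at each number. Psmd1, the large scaffold of the base, had 12.2, 10.2 and 10.7 at 5 min, against 12.5, 10.8 and 11.4 in control (-0.06, SE 0.12). The ubiquitin receptor gene Psmd4 had 7.48, 7.66 and 7.25 at 5 min, against 7.79, 8.53 and 7.48 in control (-0.08, SE 0.06). The lid subunit Psmd8 had 8.83, 9.004 and 9.13 at 5 min, against 9.09, 9.70 and 9.85 in control (-0.08, SE 0.06), where replicate 3 at 5 min was the 1 library above the lowest control. Psmd7, the lid partner of Psmd14, had 5.36, 5.28 and 5.44 at 5 min, against 5.54, 5.57 and 5.63 in control (-0.05, SE 0.05).

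Assembly factors help to put the rings and the base together. Psmd10 had 0.841, 0.946 and 0.927 at 5 min, against 0.981, 1.12 and 0.934 in control (-0.08, SE 0.05), and was lower at each number with overlapping groups. Psmd5, a base chaperone, had 3.44, 3.47 and 3.43 at 5 min, against 3.59, 3.44 and 3.67 in control (-0.04, SE 0.07). Psmd9, another base chaperone, had 2.13, 2.09 and 2.36 at 30 min, against 1.75, 1.99 and 2.05 in control, the 1 member of 40 whose 30 min libraries all lay above all controls, against 0.823% of all genes (log2 change 0.13, SE 0.07). Among the caps, Psme1, a subunit of the PA28 activator that interferon induces, had 3.46, 3.71 and 4.41 at 5 min, against 4.06, 4.21 and 4.79 in control. It was lower at each number, with overlapping groups and a log2 change of -0.14 (SE 0.10 without the block). In limma with the replicate block its unadjusted p was 0.0048 and its adjusted p 0.668. Psme3, the nuclear PA28 subunit, had 6.47, 7.49 and 7.46 at 5 min, against 6.84, 7.27 and 7.75 in control (-0.03, SE 0.08).

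**Figure D2:**
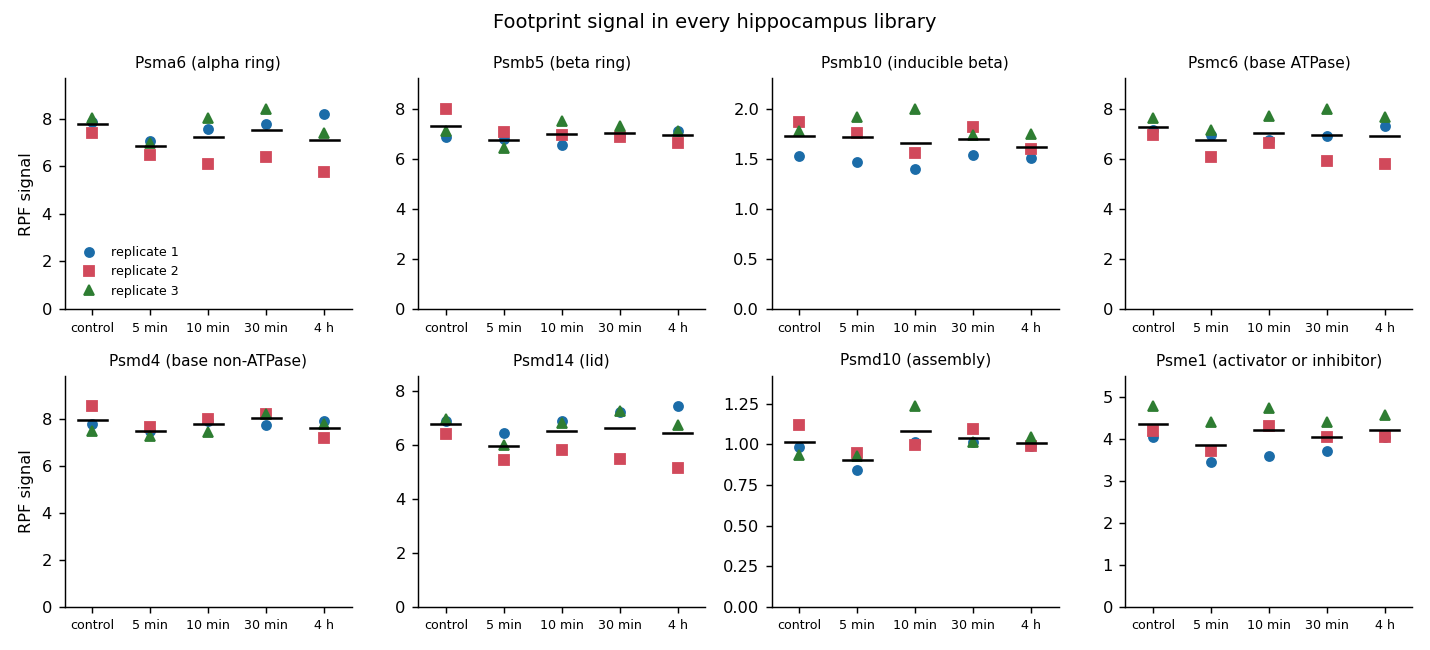
RPF signal of selected members (vertical axes) in the 15 hippocampus libraries, in the order control, 5 min, 10 min, 30 min and 4 h, with 1 point a library marked by its replicate number and a bar at the group mean. Psma6 shows 5 min points of 6.48 to 7.07 below control points of 7.38 to 8.02.

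At the later times the footprint estimates were smaller or rested on 1 library. At 10 min 32 of 40 members were below 0 (49.7% of all genes) with a median of -0.04, and at 30 min 23 of 40 (39.2% of all genes) with a median of -0.01. Leaving out 1 library of the pair of groups left 22 (without replicate 2 at 10 min) to 34 of 40 below 0 at 10 min, with medians of -0.066 to -0.006, and 12 (without replicate 2 at 30 min, median 0.025) to 32 (without replicate 3 at 30 min, median -0.041) at 30 min. In these fits 45.1% to 57.5% of all genes were below 0 at 10 min, and 39.0% to 50.7% at 30 min. Members lower at all 3 numbers were 9 at 10 min, 1 at 30 min and 8 at 4 h, against 12%, 6.43% and 10% of all genes. At 4 h the log2 change was below 0 for 40 of 40 members (48.8% of all genes), with a median of -0.05. This came from replicate 2 of the 4 h group, in which 40 of 40 members lay below the control of the same number with a median difference of -0.18, whereas 10 and 21 of the 40 lay below in replicates 1 and 3. Without that library 15 of 40 were below 0, against 39.7% of all genes, and the median was 0.01, against 0.018 for all genes. By number, 39.5%, 53.5% and 50.8% of all genes lay below control in replicates 1, 2 and 3 at 4 h. Psmd6, a lid subunit, gave 6.91, 5.04 and 6.43 at 4 h, against 7.03, 6.31 and 6.69 in control (log2 change -0.12, SE 0.12), with replicate 2 of the 4 h group the lowest.

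**Figure D3:**
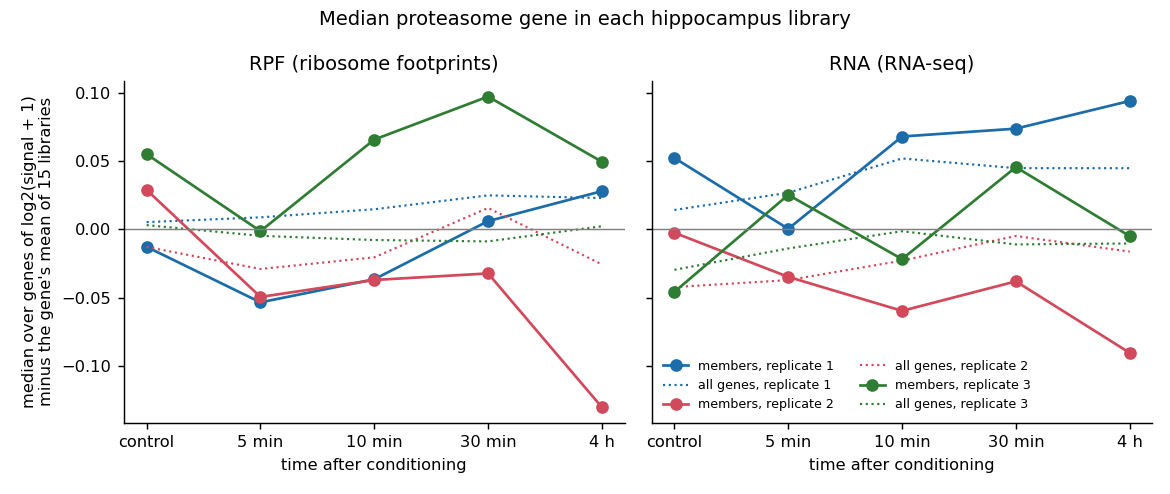
Median over the proteasome members of log2 signal relative to each gene's mean over the 15 libraries of a kind (vertical axis), for each hippocampus library by group (horizontal axis), with lines joining libraries of the same number and dotted lines for all genes. In RPF replicate 2 at 4 h is the lowest at -0.13, and the 5 min libraries lie below the control library of the same number.

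In RNA the members gave no call and no stable direction. By limma 0 of 38 members were called at any time, beside 0% of 8061 genes, and 0 had an unadjusted p under 0.05. With the replicate block 0 members were called, beside 0.0372%, 0.0248%, 0.0248% and 0.0124% of all genes, and 0, 1, 0 and 1 members had an unadjusted p under 0.05, among 532, 968, 809 and 1317 of all 8061 genes. By limma-voom 0 were called, and 2 members had an unadjusted p under 0.05 at 4 h, among 165 genes. Limma-voom with the block called 0 members, with 7 at an unadjusted p under 0.05 at 10 min (626 genes) and 4 at 4 h (1018 genes). The log2 change was below 0 for 24 of 38 members at 5 min (40% of all genes), 20 at 10 min (29% of all genes), 13 at 30 min (28.4% of all genes) and 19 at 4 h (33.8% of all genes). Centring each library on its median gene, which changes the scaling alone, gave 25, 27, 19 and 26 of 38. The shares of all genes were then 45.1%, 46.7%, 45.8% and 46.5%. Limma-voom, which changes the scaling, the offset and the weights together, gave 33, 31, 27 and 36 of 38, with 64.4% to 68.0% of all genes then below 0. The sign of the RNA change thus depends on the setting. In each of these settings the share of members below 0 was above that of all genes at every time. By limma the members' medians were -0.011, -0.0007, 0.026 and -0.0007, against 0.013, 0.032, 0.030 and 0.027 for all genes. The order turned at 30 min and 4 h when 1 library was left out. Without replicate 2 at 30 min 5 of 38 were below 0, against 26.8% of all genes. Without replicate 2 at 4 h it was 9 of 38, against 28.4%. RPF counts in the voom fit without the block were 37, 35, 27 and 40 of 40, against 60.4%, 55.8%, 52.3% and 62.1% of all genes. By class, limma without the block gave RNA changes below 0 for 6, 7, 5 and 5 of 7 beta ring genes. Their medians were -0.042, -0.062, -0.016 and -0.064. In the alpha ring 5, 3, 0 and 2 of 7 were below 0, with medians of -0.010, 0.003, 0.051 and 0.034. In the lid 5, 3, 3 and 4 of 8 were below 0, and in the base ATPases 3, 3, 2 and 3 of 6.

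The RNA of Psmd11, a scaffold subunit of the lid, had signals of 2.59, 2.94 and 2.92 at 4 h, against 2.50, 2.40 and 2.57 in control. All 4 h libraries lay above all controls, as in no other member of the 38 and in 5.46% of all genes, and its log2 change was 0.13 (SE 0.06, adjusted p 0.9999 in limma and 0.203 with the replicate block, where it had the smallest adjusted p of any member). The RNA of Psmb6 had 4.05, 3.44 and 3.496 at 4 h, against 4.02, 4.06 and 3.91 in control (log2 change -0.10, SE 0.07), with replicates 2 and 3 at 4 h below all controls. The RNA of Psma3 had a log2 change of 0.08 at 5 min (SE 0.05) and 0.06 at 4 h (SE 0.05), and was higher than control at each number both times. Psmb5 was among the lowest in RNA at 5 min (-0.08, SE 0.10) and at 4 h (-0.08, SE 0.10), within the spread of its libraries.

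Translational efficiency (TE, footprints relative to RNA, tested as the interaction of library kind and time) was called for 0 of 38 members at any time by limma, beside 0% of 7103 genes, with 0 at an unadjusted p under 0.05. The replicate block also called 0, beside 0.0141% of all genes at 5 min and 0% at the later times, with 2, 1, 0 and 1 members at an unadjusted p under 0.05, among 397, 405, 172 and 451 of all 7103 genes. The log2 TE change was below 0 for 34 of 38 members at 5 min (56.1% of all genes), 24 at 10 min (67.9% of all genes), 27 at 30 min (60.2% of all genes) and 29 at 4 h (60.1% of all genes), with medians of -0.05, -0.02, -0.03 and -0.04. The medians of all genes were -0.012, -0.029, -0.015 and -0.018. With libraries centred on the median gene, 30, 18, 21 and 24 of 38 members were below 0, with medians of -0.035, 0.014, -0.001 and -0.017. The medians of all genes were then 0.006, 0.00006, 0.009 and 0.004. The sign at 10 min thus depends on the scaling, while the members' median at 10 min lay above that of all genes both ways. Without control replicate 3 the counts were 25, 18, 19 and 23, and without control replicate 1 they were 34, 31, 32 and 35, with medians at 5 min of -0.014 and -0.104. Of all genes, 46.8%, 49.9%, 44.0% and 47.6% were below 0 with centring. The shares were 51.1%, 60.3%, 52.6% and 54.7% without control replicate 3, and 60.1%, 68.5%, 62.4% and 63.1% without control replicate 1. Psma2, an alpha subunit, had a log2(RPF + 1) minus log2(RNA + 1) of 0.45 ± 0.09 at 5 min and 0.45 ± 0.19 at 10 min, against 0.61 ± 0.14 in control (SD, n = 3 each), with changes of -0.16 (SE 0.12) at both times. The ATPase gene Psmc1 had -0.12 ± 0.11 at 5 min, against 0.04 ± 0.19 in control (SD, n = 3 each), a change of -0.16 (SE 0.16). Psmd11 had 0.61 ± 0.17 at 4 h, against 0.79 ± 0.10 in control (SD, n = 3 each), a change of -0.19 (SE 0.11). These SDs leave the pairing by number out, and each difference is close in size to the larger SD of its groups. In limma with the replicate block, Psmd11 at 4 h had an unadjusted p of 0.010 and an adjusted p of 0.725.

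Replicate number, unlike time, gave calls among the members. In limma with number and time as terms, RPF differed between the 3 numbers at an adjusted p under 0.05 for 28 of 40 members (70.0%), against 73.1% of all genes, and RNA for 26 of 38 (68.4%), against 65.5%, so the members' shares are close to those of all genes. Psmc2, a base ATPase, had RPF signals of 4.56 to 5.06 over the 5 libraries of number 1, 2.92 to 3.38 in number 2 and 3.21 to 3.72 in number 3. Psmd1 had 12.2 to 13.4, 9.50 to 10.8 and 10.3 to 11.4. Number 1 thus stood above both others in these base subunits without overlap. Psme2 and Psme3 ran the other way, with Psme2, the other subunit of the interferon-induced PA28, at 1.498 to 1.799 in number 1, 1.91 to 2.02 in number 2 and 1.90 to 2.08 in number 3, and Psme3 at 6.40 to 6.84, 7.12 to 7.49 and 7.22 to 7.75. In RNA, Psmd14 had 4.36 to 5.09 in number 1, 3.75 to 4.00 in number 2 and 3.67 to 3.90 in number 3.

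Between sources the differences were of another size. In ESC 36 of 43 members had over 2-fold higher footprints than control hippocampus, against 32% of all 8760 genes, and 38 of 43 had over 2-fold higher RNA, against 31% of genes. The median log2 ratio of the members was 1.75 in RPF and 2.20 in RNA, after scaling on the median ratio over all genes, which is about 0. In culture 5 of 43 members were over 2-fold higher in RPF (11.1% of genes) and 9 of 43 in RNA (8.39% of genes), with medians of 0.44 and 0.62. Scaled to total reads, 14 of 43 were over 2-fold higher in culture RNA, against 12.8% of genes. With 1 library in each cell source there is no test, and the intervals given below cover counting error only. Control values are reads scaled to the depth of the other source, and ± is the SD of the log2 ratio over the 3 control libraries.

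**Figure D4:**
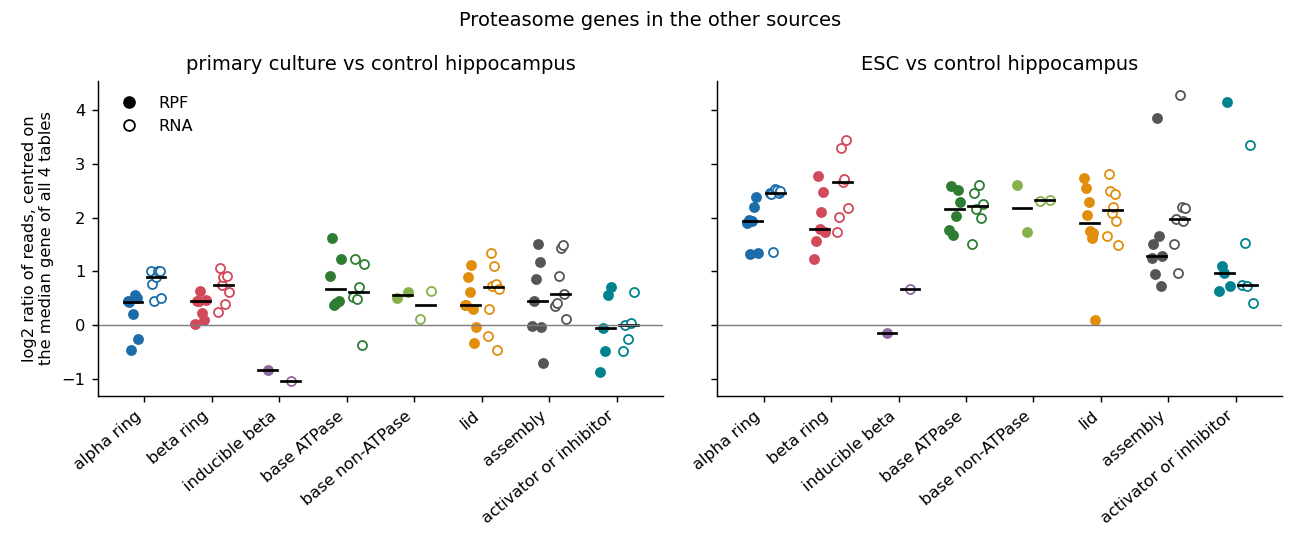
Log2 ratio of reads in ESC and in culture to control hippocampus for the members listed in all 4 tables, by class, in RPF and RNA, with 1 point a member, a bar at the class median and the median gene at 0. ESC medians of the core and 19S classes lie between 1.798 and 2.67, culture medians between 0.38 and 0.90.

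Promoters of 4 beta subunits are shown. Psmb3, Psmb5 and Psmb6 were among the members with high RNA ratios in ESC, with and without the first motif searched, and Psmb10 was among the lowest. They are the 250 bases before the gene start from RefSeq (build GRCm38.p6), in the direction of the gene. Capitals mark TGACNNNGC, the core of the antioxidant response element that Nfe2l1 and Nfe2l2 recognize, in Psmb5 and Psmb6, and CCAAT in Psmb3. Psmb5 lies at chr14:54617996-54618245 (minus strand) with the match starting 47 bases before the gene, and Psmb6 at chr11:70525107-70525356 (plus strand) with the match in the last 9 bases. Psmb3 lies at chr11:97703184-97703433 (plus strand) with 2 CCAAT and no TGACNNNGC, and Psmb10 at chr8:105938393-105938642 (minus strand) with neither.
Psmb3: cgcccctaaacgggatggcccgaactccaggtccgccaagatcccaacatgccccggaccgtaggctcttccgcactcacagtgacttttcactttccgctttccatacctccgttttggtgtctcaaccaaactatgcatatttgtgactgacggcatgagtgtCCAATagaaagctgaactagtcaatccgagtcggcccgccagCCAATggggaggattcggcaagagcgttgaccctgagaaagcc
Psmb5: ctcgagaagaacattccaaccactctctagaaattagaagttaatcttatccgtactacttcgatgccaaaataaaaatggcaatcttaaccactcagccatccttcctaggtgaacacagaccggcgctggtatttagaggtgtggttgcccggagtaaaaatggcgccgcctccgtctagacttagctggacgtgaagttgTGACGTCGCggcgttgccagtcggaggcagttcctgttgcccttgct
Psmb6: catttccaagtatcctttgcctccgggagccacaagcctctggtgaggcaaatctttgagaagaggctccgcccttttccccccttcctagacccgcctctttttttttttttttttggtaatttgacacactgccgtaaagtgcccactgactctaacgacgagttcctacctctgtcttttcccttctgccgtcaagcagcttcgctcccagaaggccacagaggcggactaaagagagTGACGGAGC
Psmb10: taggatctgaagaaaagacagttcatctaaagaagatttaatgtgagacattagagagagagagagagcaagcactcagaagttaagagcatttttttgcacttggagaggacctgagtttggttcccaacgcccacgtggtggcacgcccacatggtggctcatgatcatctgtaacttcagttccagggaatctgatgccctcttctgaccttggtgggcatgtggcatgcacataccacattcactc
Searched on both strands, TGACNNNGC was in the promoters of 5 of 39 members with a RefSeq entry (12.8%), namely Psmb5, Psmb6, Psmc6, Psmd9 and Psmd12, against 11.5% of 27025 genes. TGACNNNGC was in none of Psmg1, Psmb3 and Psmb4, whose RNA ratios in ESC are also high (4.28, 3.31 and 2.67). CCAAT, searched likewise, was in 13 of 39 (33.3%), among them 5 of 7 alpha ring genes, against 37.5% of all genes and 40.3% of those hippocampus genes. Both shares over all members are close to those of all genes, and a match is a description of letters, not a binding site.

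The 20S core was higher in ESC throughout. All 14 core subunits were over 2-fold higher in both RPF and RNA, with class medians of 1.95 (RPF) and 2.46 (RNA) in the alpha ring and 1.798 and 2.67 in the beta ring. Psmb6 had 44126 RPF reads in ESC (95% exact Poisson interval 43715 to 44540), against 7354, 8544 and 7875 in control, a log2 ratio of 2.48 ± 0.11. Its RNA had 11750 reads in ESC, against 1054, 1105 and 1057 in control (3.45 ± 0.04). Psmb3, a beta subunit without protease site, had the largest footprint ratio of the core, with 69925 reads in ESC, against 9590, 10544 and 10635 in control (2.77 ± 0.08, RNA 3.31 ± 0.14). Psmb5 had 29569 RPF reads in ESC, against 6499, 7500 and 6711 in control (2.10 ± 0.11, RNA 2.71 ± 0.11). The smallest RPF ratio in the core was that of Psmb1 (1.24 ± 0.11).

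The immunoproteasome subunit did not share this. Psmb10 had 1470 RPF reads in ESC (interval 1396 to 1547), against 1450, 1745 and 1679 in control, a log2 ratio of -0.14 ± 0.14. The ESC value lies within the range of the controls. Its RNA had 892 reads in ESC, against 543, 598 and 551 in control (0.66 ± 0.07).

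The 19S classes had medians close to those of the core, at 2.17 (RPF) and 2.22 (RNA) in the base ATPases and 1.90 and 2.15 in the lid. Psmd11 had 31637 RPF reads in ESC, against 4418, 4621 and 5292 in control (2.73 ± 0.14), with an RNA ratio of 1.65 ± 0.05, and Psmd1 had 66581, against 11823, 10092 and 10750 (2.62 ± 0.11, RNA 2.32 ± 0.13). Psmd8 stood apart from the other 19S subunits. Its RPF had 9674 reads in ESC (interval 9482 to 9869), against 8628, 9088 and 9322 in control (0.10 ± 0.06), while its RNA had 4627, against 1679, 1691 and 1570 (1.49 ± 0.06).

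Assembly factors and caps were spread more widely in ESC. Psmg1, a chaperone of the alpha ring, had 10966 RPF reads in ESC, against 824, 704 and 739 in control, a 14.5-fold ratio (log2 3.86 ± 0.12), and its RNA was 19.4-fold higher (4.28 ± 0.04). Its partner Psmg2 reached 1.66 ± 0.08 in RPF and 2.20 ± 0.14 in RNA. Psme4, which codes for the PA200 cap, had 44375 RPF reads in ESC (interval 43963 to 44790), against 2549, 2489 and 2446 in control, a 17.8-fold ratio (4.15 ± 0.03), with RNA 10.2-fold higher (3.36 ± 0.10). The largest ratio of all members was that of Psme4 in RPF and that of Psmg1 in RNA. At the other end, Psme1 had RPF and RNA ratios of 0.64 ± 0.13 and 0.74 ± 0.03, and Psmf1, the inhibitor PI31, of 0.72 ± 0.08 and 0.41 ± 0.23.

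In culture the same classes lay closer to control hippocampus. Class medians were 0.42 (RPF) and 0.90 (RNA) in the alpha ring, 0.45 and 0.75 in the beta ring, 0.68 and 0.61 in the base ATPases and 0.38 and 0.71 in the lid. Psmc2 had 3757 RPF reads in culture (interval 3638 to 3879), against 1548, 1090 and 1074 in control (log2 1.62 ± 0.30), and its control libraries carry the difference between replicate numbers given above. Psmg1 had 737 in culture, against 279, 242 and 252 in control (1.52 ± 0.11, RNA 1.44 ± 0.04), and Psmc6 had 5482, against 2306, 2246 and 2470 (1.23 ± 0.07, RNA 1.14 ± 0.07). In RNA the highest ratios were those of Psmg2 (1.49 ± 0.13), Psmg1 and the lid subunit Psmd13 (1.34 ± 0.03).

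Psmb10 and Psme1, both induced by interferon, were low in culture. Psmb10 had 310 RPF reads in culture (interval 276 to 347), against 492, 600 and 572 in control (-0.83 ± 0.15), and 143 RNA reads, against 285, 311 and 291 (-1.05 ± 0.07). Psme1 had 767 RPF reads in culture, against 1307, 1356 and 1546 in control (-0.87 ± 0.13, RNA -0.48 ± 0.03), while its partner Psme2 had 587, against 549, 623 and 659 (-0.05 ± 0.14). Psmg4, a further alpha ring chaperone, had 122, against 168, 200 and 238 (-0.71 ± 0.25), and the lid subunit Psmd7 had RPF and RNA ratios of -0.33 ± 0.01 and -0.46 ± 0.15. Microglia and oligodendrocyte markers are low in culture too (above), and their part in these ratios was not tested.

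In control hippocampus the members' TE, taken relative to the median gene of the same replicate, was above 0 for 36 of the 38 members past the filter on low values, with a median of 0.68. Of these, 4 exceeded the median gene by over 1 on the log2 scale in 3 of 3 replicates, against 5.83% of 6035 genes. The highest were Psmb2, a beta subunit, with 1.55, 1.58 and 1.599, the lid subunit Psmd3 with 1.25, 1.41 and 1.21, and Psma6 with 1.152, 1.101 and 1.24. The lowest were Psme4 with -0.77, -0.90 and -0.81, Psmb10 with -0.27, -0.18 and -0.17, and Psmc1 with -0.13, 0.00 and 0.21. The pseudocount of 1 pulls low genes towards 0 on this scale.

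Relative TE differed between sources member by member. In culture it lay below all 3 control values for 22 of 43 members, against 36.9% of 8760 genes, and above all 3 for 10, against 42% of genes. In ESC it lay below all 3 for 23, against 41.9% of genes, and above all 3 for 15, against 46.1% of genes. These counts carry the pseudocount of 1, which weighs more on the lower control signals than on those of ESC. Of the 15, Psma6, Psmb2, Psmd7, Psmd9 and Psme1 had lower read ratios to control in RPF than in RNA. Their log2 ratios were 2.39 and 2.46, 1.57 and 2.01, 1.72 and 1.93, 0.952 and 0.961, and 0.64 and 0.74. The rest of the 15 had higher ratios in RPF. The core made up much of the lower side, with 13 of 14 core subunits below all controls in culture and 10 of 14 in ESC. The ESC count holds for this scale only. The core subunits outside it, Psma3, Psma5, Psma6 and Psmb2, also had lower read ratios in RPF than in RNA in ESC. For Psma3 these were 1.32 and 1.37, and for Psma5 2.20 and 2.51. Psma7, an alpha subunit, had -0.33 in ESC and -0.02 in culture, against 0.52, 0.67 and 0.68 in control. Psmd8 had -0.62 in ESC and -0.06 in culture, against 0.46, 0.55 and 0.63 in control. Psmd11 ran the other way with 2.09 in ESC and 1.27 in culture, against 0.71, 0.79 and 0.85 in control, as did the ATPase gene Psmc5 with 1.153 in ESC and 1.23 in culture, against 0.35, 0.55 and 0.55 in control.

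**Figure D5:**
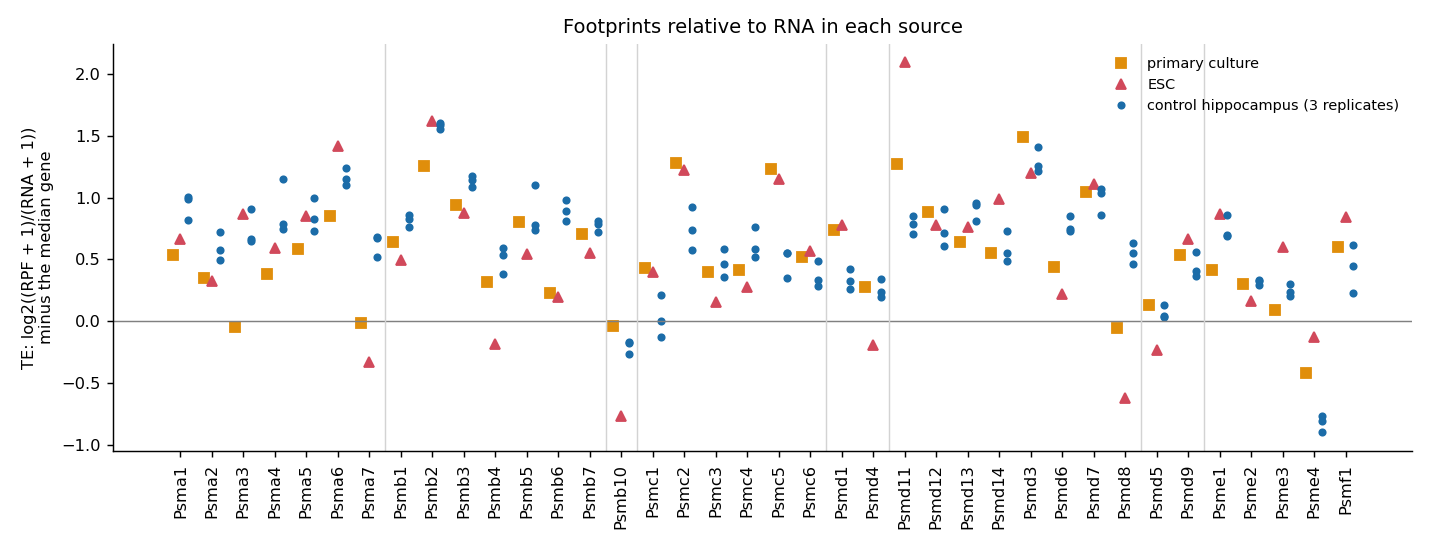
Relative TE (log2, the median gene of each library pair at 0) of the members (horizontal axis, 38 past the filter) in culture, in ESC and in the 3 control hippocampus replicates. Psmd11 lies highest in ESC at 2.09, and Psmd8 and Psma7 lie below 0 in ESC and above 0 in every control.

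Genes around the proteasome gave no call over time either. By limma, 0 of 17 partner proteins, 0 of 5 ubiquitin and ubiquitin-activating genes and 0 of 5 genes of transcriptional control and substrate extraction were called in RPF, RNA or TE at any time. At 5 min, 15 of 17 partners were below 0 in RPF with a median of -0.02. Between sources the partners had median log2 ratios of 0.23 (RPF) and 0.36 (RNA) in ESC, below the 1.75 and 2.20 of the members. Uchl5, a deubiquitinase bound to the 19S base, was at 2.41 ± 0.08 and 2.18 ± 0.21, whereas Ubqln2, a shuttle for ubiquitinated proteins, was at -2.14 ± 0.05 and -3.69 ± 0.05. Nfe2l1, the transcription factor that drives proteasome genes when the proteasome is inhibited, was at -0.13 ± 0.16 (RPF) and -0.14 ± 0.04 (RNA) in ESC, and at 1.08 ± 0.15 and 0.85 ± 0.05 in culture. Nfe2l2, the related factor of the oxidative stress response, was at 3.34 ± 0.24 and 2.39 ± 0.10 in ESC. Vcp, the ATPase that extracts ubiquitinated proteins, was at 2.50 ± 0.25 and 2.19 ± 0.16 in ESC and at 1.63 ± 0.25 and 1.43 ± 0.16 in culture.

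Some members were outside these comparisons. Of the members in the hippocampus tables, 4 subunits or chaperones (Psmb8, Psmg1, Psmg3 and Psmg4) and Psmc3ip had a mean RPF signal below 1 over the 15 libraries and were not tested in RPF, and Psmd10 and Psmg2 were in addition below it in RNA. Psmb8, the immunoproteasome counterpart of Psmb5, was listed only in the hippocampus tables, with 62, 65 and 47 RPF reads in control, and Psmb9, that of Psmb6, only in ESC, with 127 RPF reads (interval 106 to 151). Psma8, an alpha subunit known from testis, was listed only in ESC with 649 RPF and 203 RNA reads. Psmd2, the second scaffold of the base, was listed only in ESC, with 218 RPF and 59 RNA reads. Why Psmd2 and other members are missing from a table was not tested, so absence there is not read as absence of expression. Whether the few Psmd2 reads in ESC reflect its RNA or the assignment of reads was not tested either. Psmc3ip had 2035 RPF reads in ESC, and in control hippocampus 89, 83 and 58, here not scaled to the depth of ESC. Its RPF signals were 3.09 in ESC and 0.239, 0.249 and 0.190 in control. Psmb5, Psmb6, Psmb7, Psma5 and Psme2 have near-identical copies in the mouse genome, and no label or header used here says how reads shared with them were counted, so their values are uncertain to that extent.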

How the data were processed

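Reads were processed with CASAVA 1.8.2 and Bowtie 1.1.1 against mm9, per the submitters' processing notes. The deposited signal of each gene and library is, as tested on the values, a whole number of reads divided by 1 number per library, within 0.01 reads; no source used here gives what that number stands for, the gene models or the strand setting. Since the deposited signal is not a count, limma 3.58.1 (R 4.3.3; lmFit, eBayes with trend) on log2(signal + 1) was used across all genes with a mean signal of at least 1 over 15 libraries, with all 5 hippocampus groups, 2-sided contrasts with control, Benjamini-Hochberg adjustment and a threshold of 0.05. TE was the interaction in 30 libraries. Standard errors given for named members are from the fits without the replicate block, which leave the pairing by number out. Fold changes on this scale understate those of low genes. Libraries of the same replicate number deviated together (r of 0.40 to 0.94 over 30 pairs in RPF and 0.27 to 0.87 in RNA, against -0.76 to 0.26 and -0.75 to 0.12 over 60 pairs of different numbers), so the numbers pair the samples and a fit with the block is given. Cell sources were compared by reads scaled on the median ratio of 8760 genes, with 95% exact Poisson intervals that cover counting error only. Members named with values are, by class, those with the highest control RPF signal (not divided by length, used to choose only) and the largest RPF change at 5 min, the extremes in RNA, TE and between sources, and the catalytic and inducible beta subunits; further members were named after their values were seen. Members, lists and tests were chosen with earlier results of these data known. Promoters come from RefSeq.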

Additional observations from a re-analysis of the deposited data

How the results depend on the processing

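Across the alternatives that were run (pseudocount 0.1, no filter on low values, median-centred libraries, the replicate block, leaving out each library, and limma-voom on the reads with and without the block, the last 2 chosen after seeing the data), 422 values that answer a comparison were within the limits set for them and 24 moved, while of the values of named members 517 kept their direction and side and 15 turned sign. The replicate block changed no call of a member. The number of genes called, 0 in the plain fit, was 4 in RPF at 30 min, 3, 2, 2 and 1 in RNA at 5 min, 10 min, 30 min and 4 h, and 1 in TE at 5 min with the block. With voom and the block it was 1 at 5 min and 4 at 30 min in RPF and 2 at 10 min and 1 at 4 h in RNA. With no filter it was 1 in RPF at 10 min and 1 at 30 min. Voom moved the members' median RNA change to -0.077 at 10 min and -0.073 at 4 h, and to -0.073 and -0.069 with the block. Scaling to total reads over the shared genes moved the ESC medians to 1.38 (RPF) and 2.03 (RNA), the culture RNA median to 0.80 and the members over 2-fold higher in culture RNA to 14. Without 1 control library the culture medians ranged from 0.407 to 0.443 in RPF and from 0.626 to 0.638 in RNA. From the reads themselves the median baseline TE was 0.79. Small changes of some named members took both signs when 1 library was left out: from -0.049 to 0.080 for Psma3, -0.109 to 0.0079 for Psmb1, -0.060 to 0.060 for Psmb10 and -0.066 to 0.034 for Psme3 in RPF at 5 min, from -0.137 to 0.0039 for Psmb6 in RNA at 5 min, -0.109 to 0.0064 at 30 min and -0.173 to 0.035 at 4 h for Psmb5 in RNA, and from -0.035 to 0.079 for Psmd9 at 5 min and -0.066 to 0.120 for Psmd7 at 4 h in TE. The cause was not tested. Count tests (edgeR and DESeq2) were not run; limma-voom on the reads behind the signal stood in their place. Footprints per codon were not run for lack of protein lengths. Few reads lie behind Psmb8, Psmb9, Psmd2 and the RNA of the assembly factors, and 1 library a cell source allows no test.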
